A study of Mus musculus with 10 samples.

Results

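The genes described here encode ligands, receptors, intracellular mediators and inhibitors of the transforming growth factor beta (TGF-beta) superfamily. They were chosen by name, as every array probe whose only gene symbol began with Bmp and a digit or r, Gdf and a digit, Tgfb followed by a digit, r or i, Inhb, Acv, Smad and a digit, Amh, Lefty, Fst or Grem, or was Nodal or Nog. This rule found 44 genes, each with 1 probe, of 8738 genes that had 1 symbol and values on the array. The rule itself used no measured value, though it was set with earlier results of these data known. Of the 44, 3 carry the family's name without being a ligand, receptor, Smad or established antagonist. They are Bmp1, which encodes a procollagen protease, Fstl1, a secreted glycoprotein, and Tgfbi, an extracellular matrix protein.

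Testis RNA came from male Balb-c mice that were 9 weeks old. Mice of 4 groups were given trichostatin A (TSA), an inhibitor of histone deacetylases, as 1 subcutaneous injection of 60 µg and were killed 2.5, 5, 7.5 or 10 h later. Mice of the control group received the carrier, dimethyl sulfoxide with PBS, and were killed at 10 h, so the 10 h TSA pool alone matched the control in time. Each of the 5 groups was 3 mice whose RNA was pooled (n = 1 pool, 15 mice in all) and read on 2 CodeLink arrays, so duplicates measure the spread between arrays and not between animals.

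Ligands of this family are secreted dimers that bring together type I and type II serine/threonine kinase receptors. The type I receptor phosphorylates receptor-regulated Smads, which join Smad4 and enter the nucleus. TGF-beta, activin and nodal signals pass mainly through Smad2 and Smad3, and bone morphogenetic protein (BMP) signals through Smad1, Smad5 and Smad8. In the testis, inhibin from Sertoli cells restrains pituitary FSH, anti-Müllerian hormone marks immature Sertoli cells, and the Bmp8 genes are needed for germ cell maintenance in mice.

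Values are normalised intensities on a linear scale on which the median of each array was 1.00. Intensities below 0.0364, the 5th percentile, were set to that value. Of the 44 genes, 27 had a mean intensity above 0.207, the limit that left out the dimmest 25% of probes, and 17 did not. A log2 fold at 1 time is given with the standard error (SE) from the 2 arrays of both pools, and such a fold has no replicate check and no p-value. A gene met the size rule at a time when its fold was at least 2 either way and both TSA arrays lay beyond both control arrays. The TSA pools as a set were tested against the control pool with limma, under the assumption that a control pool varies as much as a TSA pool.

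All 10 arrays carried the same set of sorted values, and duplicates correlated with r from 0.995 to 0.998 across 7422 probes. Germ cell markers were present, with 7 of 7 spermatocyte genes and 6 of 6 spermatid genes on the array above the limit, as were 6 of 6 Leydig cell genes and 9 of 11 Sertoli cell genes. Sox9 and Gja1 were the Sertoli cell markers below it. The 5 h pool stood apart in liver transcripts: 11 of 14 liver markers on the array were above the limit, and their intensities summed to 13.6, 184, 11.03 and 11.7 at 2.5, 5, 7.5 and 10 h, against 9.91 in the carrier pool. Of these, Ttr and Apoa1 were above the limit through the 5 h pool, with means there of 19.0 and 28.5. Their means in the other pools were 0.0557 to 0.151 and 0.0708 to 0.216, so the 5 h values partly set this count and sum. Inhbe, an activin beta subunit gene known for its expression in liver and counted among those markers, had 1.33 and 1.28 on the 5 h arrays, against 1.06 and 1.45 on the control arrays. Inhbc, the other liver-enriched beta subunit gene, was at 0.0515 and 0.0364 at 5 h, against 0.0364 and 0.0525 on the carrier arrays.

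Of the 27 genes above the limit, Gdf9 and Bmpr1b rose after TSA and none fell. Gdf9, which encodes a growth factor best known from the oocyte, averaged 2.13-fold the control over the 4 TSA pools. Bmpr1b, a type I receptor for BMPs also called ALK6, was 2.00-fold the control. The calls of limma with Benjamini-Hochberg adjustment held 2.74% of all 7422 probes as higher and 0.795% as lower. In pooled testis, a change in the share of a cell type and a change in RNA per cell cannot be told apart.

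An epididymis marker passed in the same direction. Gpx5, an epididymal glutathione peroxidase gene, averaged 1.05 to 1.21 in the TSA pools, against 0.698 in the control, a log2 fold of 0.67 ± 0.12 with limma (adjusted p = 0.0474). Of 5 epididymis markers 4 were on the array, with Eppin the other above the limit and Defb1 and Lcn5 below it. Eppin stood at -0.0049 ± 0.11. Defb1 went the other way, at 0.0744 to 0.138 on the TSA arrays, against 0.220 and 0.235 on the control arrays. Lcn5 lay near the floor in all pools. The 2 markers above the limit summed to 9.04 to 9.45 in the TSA pools and 8.91 in the control. Of the spermatid markers, which summed to 761 to 799 in the TSA pools and 733 in the control, the acrosomal gene Acrv1 had the highest log2 fold, 0.55 ± 0.13 (limma, adjusted p = 0.0709). The others stood from -0.054 for Smcp to 0.20 for Tnp1 (limma, adjusted p from 0.414 to 0.937). The spermatocyte markers summed to 364 to 372 in the TSA pools and 385 in the control. Their log2 folds ran from -0.49 for Spo11 to 0.12 for Ldhc. The part of these cells in the results for Gdf9 and Bmpr1b was not tested.

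Gdf9 (probe 5569, chromosome 11) had intensities of 0.859 and 1.07 at 2.5 h, 0.969 and 0.985 at 5 h, 1.08 and 0.946 at 7.5 h, and 1.12 and 1.01 at 10 h, against 0.442 and 0.502 on the control arrays. All 8 TSA arrays lay above both control arrays, and the TSA pool means ran from 0.958 to 1.07. The log2 fold was 1.02 ± 0.18 (SE) at 2.5 h, 1.05 ± 0.092 at 5 h, 1.10 ± 0.13 at 7.5 h and 1.18 ± 0.12 at 10 h, and the gene met the size rule at each of the 4 times. These folds share the control pool. Over the TSA pools the log2 fold was 1.09 ± 0.11 (95% interval 0.81 to 1.36, limma, adjusted p = 0.0400), with 4 of 4 pools higher.

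Bmpr1b (probe 5570, chromosome 3) had 2.52 and 2.71 at 2.5 h, 2.57 and 2.70 at 5 h, 2.87 and 3.20 at 7.5 h, and 3.45 and 3.15 at 10 h, against 1.24 and 1.68 on the carrier arrays. Again no TSA array fell within the control pair, which lay further apart than any TSA pair of this gene. The log2 fold was 0.86 ± 0.23 at 2.5 h, 0.87 ± 0.22 at 5 h, 1.07 ± 0.23 at 7.5 h and 1.19 ± 0.23 at 10 h, so the size rule was met at 7.5 and 10 h. Over the TSA pools it was 0.999 ± 0.16 (95% interval 0.62 to 1.38, limma, adjusted p = 0.0474), again with 4 of 4 pools higher.

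**Figure D1:**
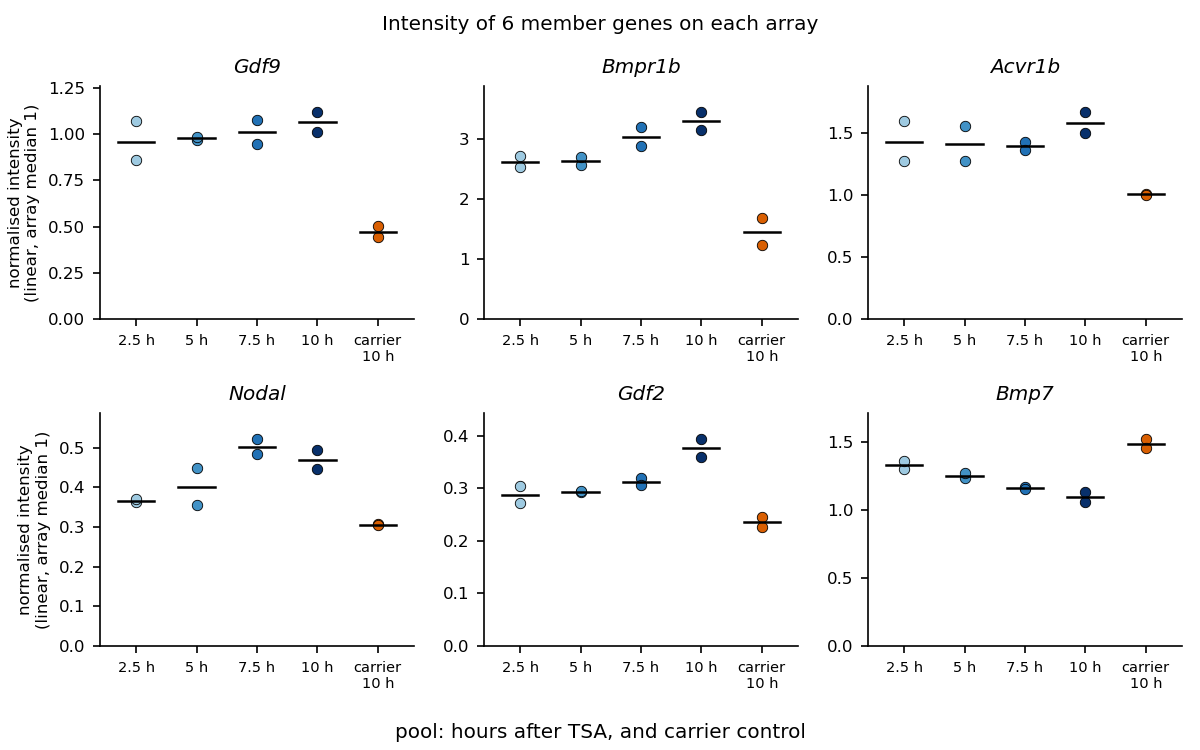
Normalised intensity (linear, array median 1) on each array for Gdf9, Bmpr1b, Acvr1b, Nodal, Gdf2 and Bmp7, with a point for each of the 2 arrays of a pool and a bar at their mean (taken on the log2 scale), for TSA pools at 2.5, 5, 7.5 and 10 h and the carrier pool killed at 10 h. All 8 TSA points lie above both carrier points for Gdf9 (0.859 to 1.12 against 0.442 and 0.502), Bmpr1b, Acvr1b, Nodal and Gdf2, and below them for Bmp7.

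The direction of both rises held under each of 24 alternative settings for Gdf9, with log2 folds of 0.80 to 1.18, and 25 for Bmpr1b, with 0.70 to 1.22, but the limma adjusted p ranged from 0.0041 to 0.167 and from 0.0052 to 0.169, and was under 0.05 in 16 and 13 of them. Without the 5 h pool, which held the liver transcripts, the log2 fold was 1.10 for Gdf9 (limma, adjusted p = 0.0888) and 1.04 for Bmpr1b (limma, adjusted p = 0.0910), and 0 member genes passed when any of the 4 TSA pools was left out (3 to 7 of all probes then passed, and 5 to 8 members at unadjusted p under 0.05). In the fits with a pool left out, the share of all probes at an unadjusted p under 0.05 was not counted. No member gene passed without the second 2.5 h array or the first 7.5 h array, and Gdf9 alone passed without the first 2.5 h, second 5 h, second 7.5 h or first 10 h array. Of all 7422 probes, 5 passed without the second 2.5 h array and 6 without the first 7.5 h array. In the fits where Gdf9 alone passed, 51, 52, 30 and 30 probes did in that order, against 262 in the main fit. The probes of Gdf9 and Bmpr1b carry consecutive ID numbers on the platform. Of 22 other tested probes within 20 ID numbers of them, 14 were above 0 and 1 passed the test, with a median log2 fold of 0.064. After each array was centred on probes of like ID number, the log2 folds were 0.94 ± 0.11 for Gdf9 (limma, adjusted p = 0.0377) and 0.85 ± 0.15 for Bmpr1b (limma, adjusted p = 0.0486), and neither then met the size rule at any time.

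RefSeq places starts of Bmpr1b at 3 sites on the minus strand of chromosome 3 (GRCm38.p6). The 300 bases around the start are shown for the farthest upstream of these sites and for the next, because Bmpr1b is the receptor gene that rose, and for Acvr1b and Bmpr1a, 2 other type I receptor genes, because their promoters differ in make-up. Capitals mark CAGAC (letters bound by Smad3 and Smad4), GGCGCC (letters bound by Smad1 and Smad5) and GGGCGG (letters bound by Sp1), on either strand, and matches that overlap or touch are joined. The windows are chr3:141982215-141982514 and chr3:141931539-141931838 (minus strand) for Bmpr1b, chr15:101173822-101174121 (plus strand) for Acvr1b and chr14:34502497-34502796 (minus strand) for Bmpr1a.
Bmpr1b upstream start: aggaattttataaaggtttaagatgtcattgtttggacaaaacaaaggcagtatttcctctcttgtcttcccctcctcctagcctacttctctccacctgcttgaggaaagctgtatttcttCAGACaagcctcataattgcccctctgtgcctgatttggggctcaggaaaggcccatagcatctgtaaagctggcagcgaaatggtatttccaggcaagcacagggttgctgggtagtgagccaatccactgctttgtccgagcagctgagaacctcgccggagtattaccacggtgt
Bmpr1b next start: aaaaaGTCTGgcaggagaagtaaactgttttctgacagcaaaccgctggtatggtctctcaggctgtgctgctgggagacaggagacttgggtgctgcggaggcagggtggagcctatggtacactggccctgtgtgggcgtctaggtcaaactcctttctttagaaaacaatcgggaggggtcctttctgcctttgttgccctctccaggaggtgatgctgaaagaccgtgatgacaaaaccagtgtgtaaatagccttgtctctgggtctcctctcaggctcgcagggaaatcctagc
Acvr1b: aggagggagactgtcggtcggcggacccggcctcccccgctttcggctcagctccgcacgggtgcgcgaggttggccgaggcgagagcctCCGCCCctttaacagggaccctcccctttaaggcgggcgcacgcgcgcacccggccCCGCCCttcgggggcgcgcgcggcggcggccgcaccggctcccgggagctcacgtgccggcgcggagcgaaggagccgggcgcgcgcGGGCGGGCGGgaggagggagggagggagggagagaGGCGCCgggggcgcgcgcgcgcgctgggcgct
Bmpr1a: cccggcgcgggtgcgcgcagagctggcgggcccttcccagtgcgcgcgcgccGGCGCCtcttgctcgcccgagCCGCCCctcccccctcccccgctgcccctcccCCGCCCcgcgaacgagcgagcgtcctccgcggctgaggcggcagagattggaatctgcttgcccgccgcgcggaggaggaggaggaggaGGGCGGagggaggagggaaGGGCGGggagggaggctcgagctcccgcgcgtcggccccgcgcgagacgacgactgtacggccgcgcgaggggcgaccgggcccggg

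The 2 Bmpr1b windows printed hold 1 CAGAC match each, the third Bmpr1b window holds none, and all 3 hold 0 matches to GGCGCC and GGGCGG. Acvr1b and Bmpr1a each hold 4 GGGCGG matches and 1 GGCGCC match. The G and C content is 48.3% and 53% in the printed Bmpr1b windows, 79.7% in that of Acvr1b and 79.3% in that of Bmpr1a. RefSeq windows were found for 30 of the 44 genes, 36 windows in all. GGGCGG was in 66.7% of these and in 35.7% of 32851 mouse windows of the same length, GGCGCC in 25% and 11.9%, and CAGAC in 52.8% and 49.6%. These are matches of letters and show no binding.

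Among the ligands, neither TGF-beta gene above the limit passed the test. Tgfb1, the most widely expressed isoform, had 1.61 and 1.36, 1.82 and 1.61, 1.53 and 1.60, and 1.5 and 1.67 at 2.5, 5, 7.5 and 10 h, against 1.33 and 1.21 on the carrier arrays. All 8 TSA arrays were above both control arrays, but the log2 fold of 0.31 (95% interval 0.02 to 0.61) did not pass (limma, adjusted p = 0.154). Tgfb3, a gene with a role in the blood-testis barrier of rats, stood at 0.12 (-0.23 to 0.48; limma, adjusted p = 0.620). Tgfb2 was below the limit, with TSA arrays at 0.135 to 0.367, against 0.117 and 0.162 in the control.

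Nodal, a ligand of early embryonic patterning that is also active in germ cells, was the activin or nodal gene above the limit with the larger fold, the other being Inhbe. Its arrays read 0.362 and 0.369 at 2.5 h, 0.356 and 0.448 at 5 h, 0.522 and 0.483 at 7.5 h, and 0.446 and 0.494 at 10 h, against 0.307 and 0.304 on the carrier arrays. Every TSA array was above the control pair, yet the log2 fold of 0.49 (0.05 to 0.94) did not pass (limma, adjusted p = 0.148). Inhbe stood at 0.16 (-0.17 to 0.49; limma, adjusted p = 0.482). The activin beta subunit genes Inhba and Inhbb, whose products pair with each other to form activins or with the alpha subunit to form inhibins, were dim on these arrays. Inhba read 0.0951 to 0.122 in TSA pools and 0.0668 and 0.210 in the control, and Inhbb 0.0364 to 0.0972 in TSA pools and 0.0733 and 0.0595 in the control.

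The other BMP and GDF ligands lay on both sides of the control. Gdf2, which encodes BMP9, a circulating ligand of endothelial receptors, read 0.272 and 0.305, 0.292 and 0.294, 0.319 and 0.306, and 0.358 and 0.394 at the 4 times in order, against 0.227 and 0.246 in the control. These groups did not overlap, and the log2 fold was 0.42 (0.02 to 0.82; limma, adjusted p = 0.162). Bmp7, a ligand of kidney and bone development, was the gene with the lowest mean log2 fold of the 27. It read 1.30 and 1.36 at 2.5 h, 1.23 and 1.27 at 5 h, 1.17 and 1.16 at 7.5 h, and 1.13 and 1.06 at 10 h, against 1.52 and 1.46 on the carrier arrays. All 8 TSA arrays lay below both control arrays, and each later pool was below the one before it. The log2 fold over the TSA pools was -0.30 (-0.63 to 0.03; limma, adjusted p = 0.207).

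Amh, the gene of anti-Müllerian hormone, was uneven between duplicates, with 0.455 and 0.210 at 2.5 h, 0.226 and 0.196 at 5 h, 0.455 and 0.276 at 7.5 h, and 0.263 and 0.289 at 10 h, against 0.177 and 0.215 on the carrier arrays. The TSA and control arrays overlapped, and the log2 fold was 0.53 (-0.09 to 1.15; limma, adjusted p = 0.229). The control mean of 0.195 was below the intensity limit, so Amh entered through its higher TSA pools. The other 7 Sertoli cell markers above the limit apart from Trf, a gene of liver as well, did not meet the size rule at any time. Bmp8a and Bmp8b, which act in spermatogenesis, stood at 0.10 (-0.26 to 0.47) and 0.013 (-0.48 to 0.51). Bmp4, which in mouse embryos induces primordial germ cells, stood at -0.071 (-0.68 to 0.54). Bmp5 at -0.093 (-0.56 to 0.37), Bmp6 at 0.020 (-0.68 to 0.72) and Gdf1 at -0.20 (-0.62 to 0.22) likewise did not pass, and these 6 genes had limma adjusted p from 0.486 to 0.977.

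Of the receptors, Acvr1b came closest to passing after Bmpr1b. It encodes ALK4, the type I receptor of activin and nodal. Its arrays read 1.60 and 1.27 at 2.5 h, 1.56 and 1.28 at 5 h, 1.43 and 1.36 at 7.5 h, and 1.67 and 1.5 at 10 h, against 1.01 and 1.00 on the carrier arrays. No TSA array reached down to the control pair, and the log2 fold was 0.53 ± 0.12 (0.24 to 0.82; limma, adjusted p = 0.0617). It passed in 3 of 25 alternatives, with log2 folds of 0.34 to 0.57 and limma adjusted p from 0.0283 to 0.213. Among those 3 was eBayes with trend and robust (limma, adjusted p = 0.0406), where 795 of 7422 probes passed. Another left out the lowest 50% of probes (limma, adjusted p = 0.0283), and 573 of 4948 probes passed there.

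The type I receptor genes Acvr1 (ALK2, a BMP receptor) and Acvrl1 (ALK1, an endothelial receptor) had log2 folds of 0.38 (-0.33 to 1.08) and 0.29 (-0.09 to 0.67). Tgfbr1, the type I receptor of TGF-beta, stood at -0.046 (-0.43 to 0.34). Among type II receptors, Tgfbr2 (for TGF-beta) had 0.39 (-0.02 to 0.81), and the activin receptors Acvr2a and Acvr2b 0.13 (-0.26 to 0.52) and 0.21 (-0.06 to 0.48). None of these 6 passed, with limma adjusted p from 0.198 to 0.880. All 8 TSA arrays were nevertheless above both control arrays for Tgfbr2 (0.401 to 0.601, against 0.367 and 0.376) and Acvr2b (2.14 to 2.62, against 2.09 and 1.93).

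Of the 5 Smads on the array, the 3 above the limit did not pass. Smad4, the shared partner, read 1.48 to 1.77 in the TSA pools and 1.54 and 1.65 in the control, with a log2 fold of 0.0094 (-0.26 to 0.28). Smad2, a mediator of TGF-beta and activin signals, stood at -0.13 (-0.45 to 0.18), and Smad6, an inhibitory Smad of the BMP branch, at -0.097 (-0.38 to 0.19). The limma adjusted p of the 3 ranged from 0.540 to 0.965. These intervals exclude a change of 2-fold in the mean of the TSA pools, given the assumed spread of the control pool. Fstl3, a follistatin-like antagonist that binds activin, had 0.857 to 1.39 in the TSA pools, against 1.34 and 1.2 in the control, and a log2 fold of -0.26 (-0.66 to 0.14; limma, adjusted p = 0.353). Bmp1, which also cleaves the BMP antagonist chordin, read 0.253 to 0.340 after TSA, against 0.238 and 0.233, and stood at 0.40 (0.10 to 0.69; limma, adjusted p = 0.104).

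**Figure D2:**
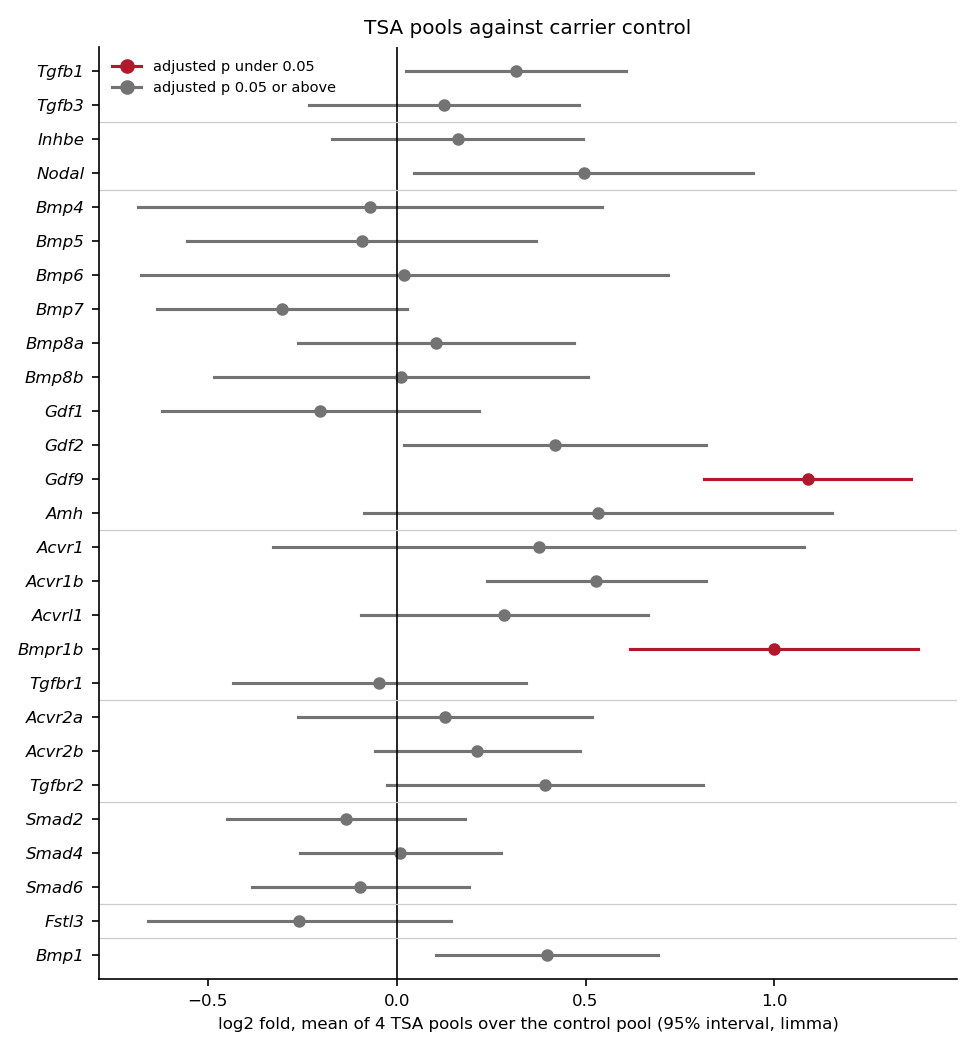
Log2 fold of the mean of the 4 TSA pools over the control pool (x axis) with its 95% interval from limma, for the 27 genes above the intensity limit, ordered by role with lines between roles. The 2 genes in red, Gdf9 at 1.09 and Bmpr1b at 0.999, had an adjusted p under 0.05, and the intervals of the 3 Smads lie across 0.

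Read time by time, the size rule was met by 1 of the 27 genes at 2.5 h, 1 at 5 h, 2 at 7.5 h and 2 at 10 h, each higher after TSA, and by 0 lower after TSA. Among all 7422 probes it was met on the higher side by 0.674% at 2.5 h, 1.21% at 5 h, 1.01% at 7.5 h and 1.23% at 10 h, and on the lower side by 0.243%, 0.337%, 0.903% and 1.44%. The genes were Gdf9 at each time and Bmpr1b at the last 2 times. Without the first control array the counts were 0, 0, 1 and 1, with Gdf9 alone at 7.5 and 10 h, and without the second control array both genes met the rule at all 4 times. The share of all probes meeting the rule without a control array was not counted. Without the second 2.5 h array Gdf9 had a log2 fold of 0.87 at that time, and without the second 7.5 h array Bmpr1b had 0.99, so that neither then met the rule there. At 10 h, the pool matched to the control in time, the folds next in size were those of Acvr1 (0.69 ± 0.18), Gdf2 (0.67 ± 0.089), Acvr1b (0.65 ± 0.077) and Nodal (0.62 ± 0.073). At the other end stood Bmp7 (-0.44 ± 0.056), Fstl3 (-0.33 ± 0.24) and Bmp4 (-0.23 ± 0.27). The means of Acvr1 in the control (0.194) and at 7.5 h (0.174) were below the intensity limit, so it entered through its higher TSA pools. Its log2 fold at 7.5 h was -0.15 ± 0.56, and the size of its folds is uncertain.

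As a description, all 8 TSA arrays lay above both control arrays in 9 of the 27 genes and below them in 1, Bmp7, where 22.2% and 23% of all tested probes did so. The mean log2 fold was above 0 in 19 genes and below 0 in 8, against 47.9% and 52.1% of all tested probes. The median log2 fold of the 27 was 0.24 at 2.5 h, 0.073 at 5 h, 0.012 at 7.5 h and 0.30 at 10 h, against -0.016, -0.029, -0.0081 and 0.0072 over all tested probes. At an unadjusted limma p under 0.05, 7 genes were higher and 0 lower, against 14.7% and 13.7% of all probes.

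**Figure D3:**
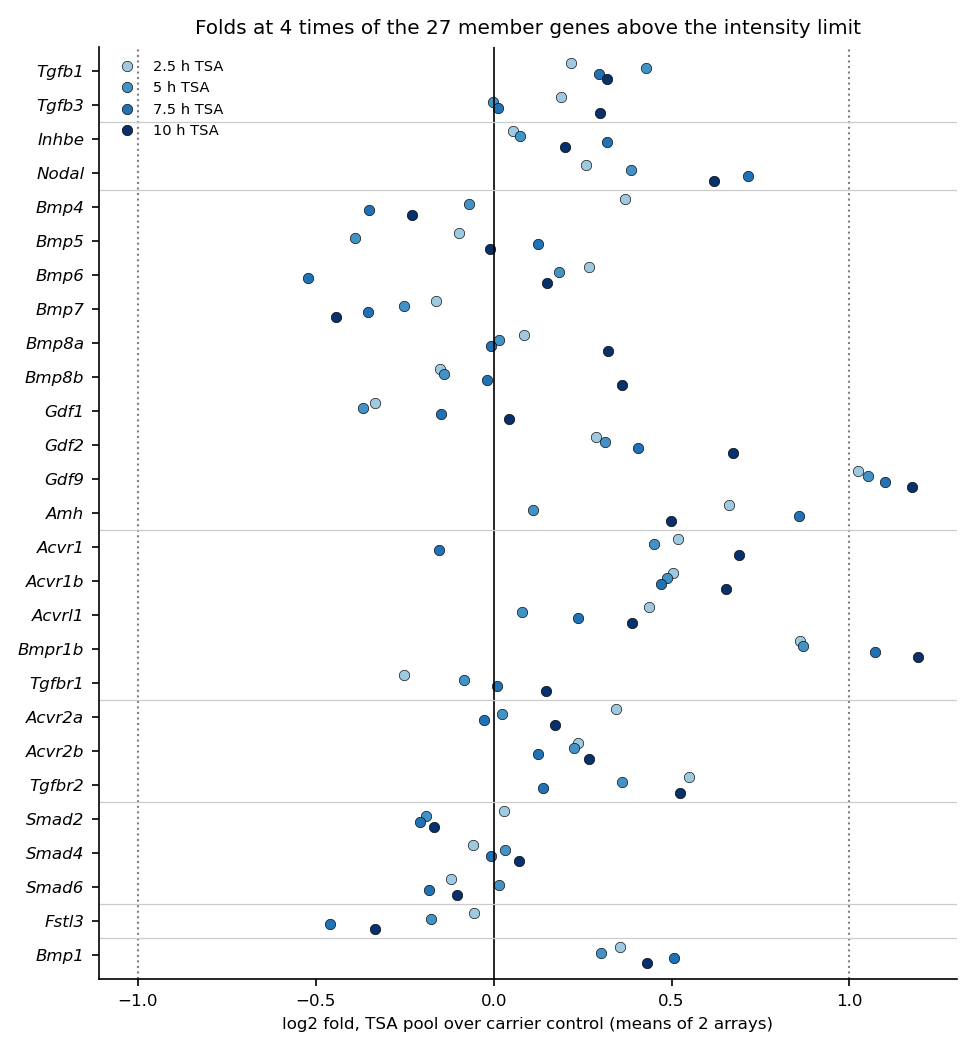
Log2 fold of each TSA pool over the carrier control (x axis, means of 2 arrays) for the 27 genes above the intensity limit, with 1 point per time (2.5, 5, 7.5 and 10 h, light to dark) and dotted lines at a 2-fold difference either way. Gdf9 lies beyond the dotted line at all 4 times (1.02 to 1.18), Bmpr1b at 7.5 and 10 h, and the other 25 genes at none.

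A linear trend over hours was also fitted, with the control at 0 h although it was killed at 10 h. A level shared by all TSA pools and apart from the control also gives a slope in this fit, so a slope alone does not show a change from one time to the next. With limma and Benjamini-Hochberg adjustment, 0 of the 27 passed, against 0.35% of all probes rising and 1.66% falling. At an unadjusted p under 0.05 there were 6 rising and 2 falling genes, against 12.7% and 12.4% of all probes. The slopes were 0.104 ± 0.0248 log2 units per hour for Bmpr1b (limma, adjusted p = 0.0772), 0.0677 ± 0.0158 for Nodal (limma, adjusted p = 0.0757), 0.0585 ± 0.0143 for Gdf2 (limma, adjusted p = 0.0792) and 0.0972 ± 0.0316 for Gdf9 (limma, adjusted p = 0.125). The falling slopes were -0.0433 ± 0.0128 for Bmp7 (limma, adjusted p = 0.110) and -0.0429 ± 0.0152 for Fstl3 (limma, adjusted p = 0.146). Over the 4 TSA pools alone, without the control, the slopes were 0.0203 for Gdf9, 0.048 for Bmpr1b, 0.0563 for Nodal, 0.0499 for Gdf2 and -0.038 for Bmp7. None of them passed, and 0 of all 7422 probes did. At an unadjusted limma p under 0.05 there were 8 member genes, and the share of all probes at that limit was not counted. When the 10 arrays were fitted with the pool as a random block, Gdf2, Bmp7, Bmpr1b and Nodal passed (limma, adjusted p from 0.0279 to 0.0424), and Gdf9 did not (limma, adjusted p = 0.0578). In that fit 719 of all 7422 probes passed, and duplicate arrays of the same pool counted as partly separate units.

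The 17 genes below the limit did not enter the main test. In a fit with no filter on dim probes 0 of them passed (limma, adjusted p from 0.169 to 0.995), and 4 had an unadjusted p under 0.05, but only 1 of all 9897 probes passed that fit. The share of all probes at that unadjusted p was not counted. In 3 of the 17 genes no TSA array overlapped the control pair. Bmpr1a, the type I receptor ALK3, read 0.0371 to 0.108 after TSA, against 0.178 and 0.133 in the control, and Tgfbi read 0.0515 to 0.140, against 0.233 and 0.235. Gdf5, a ligand of joint formation that binds Bmpr1b, read 0.101 to 0.244, against 0.0889 and 0.0858. With these, 10 of the 44 genes were separated upward and 3 downward, where 17.9% and 19% of all 9897 probes were.

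In the remaining 14 dim genes the TSA and control arrays overlapped. The antagonist genes Fst (0.0930 to 0.192 after TSA, against 0.189 and 0.0778), Nog (0.0891 to 0.369, against 0.115 and 0.0694) and Grem1 (0.0540 to 0.152, against 0.0791 and 0.0679) were all of this kind (limma with no filter, adjusted p = 0.623 for Fst, 0.180 for Nog and 0.354 for Grem1). The same held for the BMP type II receptor gene Bmpr2 (0.0364 to 0.162, against 0.0496 and 0.0364), the TGF-beta coreceptor gene Tgfbr3 (0.0557 to 0.213, against 0.0820 and 0.164) and the Smad genes Smad3 (0.0364 to 0.0627, against 0.0405 and 0.0364) and Smad5 (0.0364 to 0.0794, against 0.0364 and 0.0434). Bmp2 read 0.0364 to 0.0595, against 0.0698 and 0.0503, Gdf3, a relative of nodal, 0.0468 to 0.132, against 0.0458 and 0.0612, and Fstl1 0.0870 to 0.162, against 0.144 and 0.0909. Inhba, Inhbb, Inhbc and Tgfb2 are given above.

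**Figure D4:**
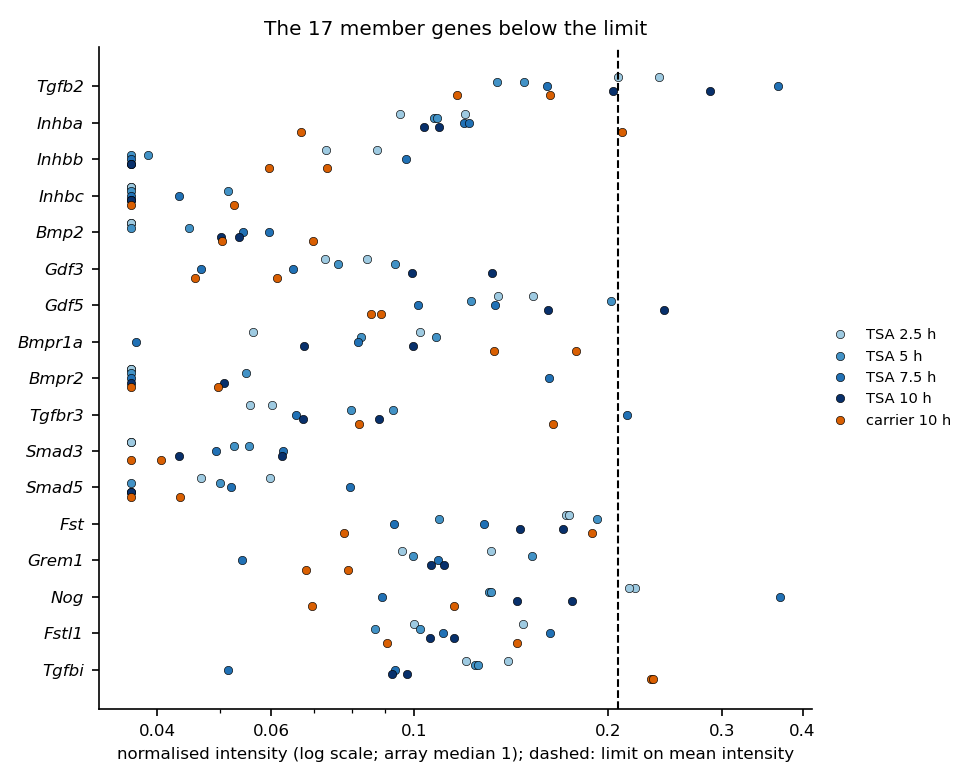
Normalised intensity on each array (x axis, log scale, array median 1) for the 17 genes whose mean lay below the limit of 0.207 (dashed line), with TSA pools in blue from 2.5 h (light) to 10 h (dark) and the carrier control in orange. Orange points lie outside the blue ones on both arrays for Tgfbi and Bmpr1a (to the right) and Gdf5 (to the left), and overlap them in the other 14.

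Other genes of the pathway were taken from 4 lists, to be read against the 2.74% of all probes that passed as higher and 0.795% as lower, and the 14.7% and 13.7% at an unadjusted limma p under 0.05. Of 24 ligand carriers and coreceptors, 16 were on the array and 10 above the limit. Among these 10, 0 passed the test of TSA pools against control, with 3 higher and 1 lower at an unadjusted p. Of 15 extracellular antagonists, 10 were on the array, 7 were above the limit and 0 passed, with 3 higher and 0 lower at an unadjusted p. Of 35 intracellular partners, 25 were on the array and 21, on 23 probes, above the limit. Tab1 passed as lower, but it was above the limit through its higher control pool. At an unadjusted p 1 probe was higher and 3 were lower. Of 33 targets, 24 were on the array, 19 were above the limit and 0 passed, with 3 higher and 1 lower at an unadjusted p. The median log2 folds of the lists were 0.27, 0.29, -0.11 and 0.0035 in this order, against -0.018 over all tested probes. No gene of these lists passed the trend test.

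Tab1, the partner protein of the kinase TAK1 in the Smad-independent branch, read 0.191 and 0.163 at 2.5 h, 0.194 and 0.225 at 5 h, 0.311 and 0.0926 at 7.5 h, and 0.212 and 0.230 at 10 h, against 0.382 and 0.366 on the carrier arrays. All TSA arrays lay below both control arrays, and the 7.5 h pair lay farther apart than any other. The gene entered the test through its higher control pool. The log2 fold was -0.96 ± 0.17 (limma, adjusted p = 0.0474). It was under 0.05 in 8 of 24 alternatives, with adjusted p from 0.0346 to 0.292, and the pool means at 2.5 and 7.5 h, 0.176 and 0.170, were below the intensity limit, which makes its size uncertain. Map3k7, the gene of TAK1 itself, stood at -0.35 (limma, adjusted p = 0.305).

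Sostdc1, a secreted antagonist of BMP and Wnt signals, had 0.189 and 0.260, 0.197 and 0.211, 0.202 and 0.295, and 0.256 and 0.304 at the 4 times, against 0.129 and 0.128. It met the size rule at 10 h, with a log2 fold of 1.12 ± 0.13. The control arrays and the 5 h mean of 0.204 were below the intensity limit, so the gene entered through its higher TSA pools and the size of its fold is uncertain. No TSA array overlapped the control pair, but the fold of 0.88 ± 0.18 over the TSA pools did not pass (limma, adjusted p = 0.0521).

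Inha, the gene of the inhibin alpha subunit, read 3.27 and 3.19 at 2.5 h, 2.91 and 2.93 at 5 h, 2.49 and 2.29 at 7.5 h, and 2.37 and 2.35 at 10 h, while the carrier arrays read 4.41 and 3.46. Every TSA array was below both control arrays, and the 7.5 and 10 h pools were the lowest. Its slope of -0.0755 ± 0.0142 log2 units per hour lay just outside the limit (limma, adjusted p = 0.0506) and was inside it in 8 of 26 alternatives, with adjusted p from 0.0233 to 0.207. Over the TSA pools its log2 fold was -0.53 ± 0.20 (limma, adjusted p = 0.141). Without Trf, which was high with the liver transcripts at 5 h, and Clu, which made up most of the sum, the 7 remaining Sertoli cell markers summed to 21.1 to 23.3 in the TSA pools and 20.5 in the control. With both genes the sums were 54.8 to 62.1 in the TSA pools and 54.0 in the control. Of the 7, Kitl (6.17) and Cldn11 (6.72) made up most of the control sum. The log2 folds of the 7 over the TSA pools ran from -0.30 for Gata1 to 0.53 for Amh. Gata1 read 0.322 to 0.497 after TSA, against 0.512 and 0.543. Below the limit, the Sertoli cell markers Gja1 and Sox9 met the size rule as lower, at 5 and 10 h (-1.07 and -1.09) and at 10 h (-1.18). Their log2 folds at 7.5 h were 0.17 and 0.18. The part of these cells in the result for Inha was not tested. Of the BMP targets of the Id family, Id3 read 2.89 to 3.66 after TSA, against 2.87 and 2.29, which is 0.32 ± 0.14 on the log2 scale (limma, adjusted p = 0.208). Id4 read 2.78 to 4.10 after TSA, against 3.18 and 3.45, and stood at -0.059 ± 0.19 (limma, adjusted p = 0.869). Id1 was dim, at 0.0607 to 0.192, against 0.125 and 0.221.

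**Figure D5:**
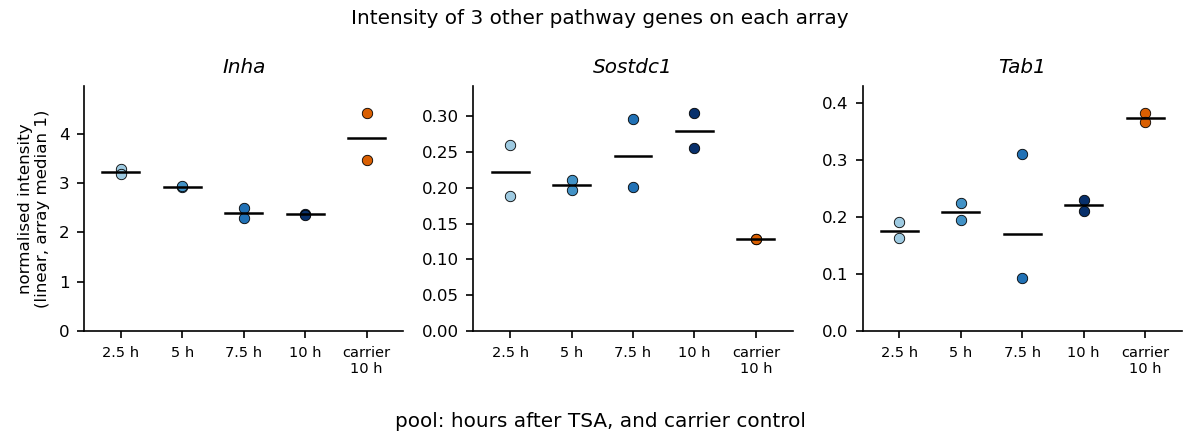
Normalised intensity (linear, array median 1) on each array for Inha, Sostdc1 and Tab1, with a point for each of the 2 arrays of a pool and a bar at their mean (taken on the log2 scale), for TSA pools at 2.5, 5, 7.5 and 10 h and the carrier pool killed at 10 h. TSA points of Inha (2.29 to 3.27) and Tab1 lie below both carrier points and those of Sostdc1 above them.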

How the data were processed

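The deposited values are intensity values of CodeLink 1-colour arrays, labelled with Cy5 per the labels' protocols, for 10 arrays (2 technical duplicates of each of 5 pools). The authors' deposited intensities were on a linear scale and shared 1 set of sorted values, the mark of quantile normalisation. For the scanner, background step, flags and software, details were not given in the sources used here. Of 10012 probes, 115 had no value. Gene symbols came from the platform table, in which 1028 probes had no symbol and 1 had several; chromosomes and promoter windows came from RefSeq (GRCm38.p6).

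Values under the 5th percentile (0.0364) were raised to it, turned to log2 and shifted to a common array median, and the lowest 25% of probes by mean log2 value were left out, which left 7422. The tests were those of limma (version 3.58.1, R 4.3.3), fitted to 5 pool means (3 residual degrees of freedom), two-sided, with Benjamini-Hochberg adjustment over all 7422 probes and 0.05 as the limit. The size rule, of a fold of 2 with both arrays of a pool beyond both control arrays, has no p-value. The methods were tested on simulated data. Python 3.11.15 and matplotlib 3.10.9 made the figures.

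Groups followed the titles of the samples. The member genes, the lists of pathway genes and markers and the tests were chosen with earlier results of these data known. Values were written out for genes that met the size rule or passed a test, for the 8 highest and 8 lowest mean folds, and for a set of central pathway genes. Alternatives were other filters, no floor, an offset of 0.25 before the logarithm, no shift, centring within 50 bins of probe ID, other fold limits, arrays and pools left out, limma on 10 arrays with the pool as a random block with and without a replicate block, eBayes with trend and robust, hours and TSA in 1 fit, and gene means. The fits on 10 arrays draw part of their degrees of freedom from duplicate arrays of the same pool, which are not separate animals. For arrays no counting depth applies, and their number limits the precision.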

Additional observations from a re-analysis of the deposited data

Results flagged for a closer look

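Among the 27 genes above the intensity limit, the spread of the 4 TSA pools held a pool far from the others in 2 genes, where chance gives about 1 in 20. In Smad2 the 2.5 h pool lay apart, with a gap of 0.842 of the whole range to the nearest pool, and in Bmp6 the 7.5 h pool, with 0.852.

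In 4 genes both arrays of a TSA pool lay above the control pair at 1 time and both arrays of another pool below it, a difference between times that was not tested. The share of all tested probes with such a pattern was not counted. The log2 fold of Bmp4 was 0.368 at 2.5 h and -0.351 at 7.5 h, and that of Bmp6 was 0.268 at 2.5 h and -0.522 at 7.5 h. Bmp8b had -0.152 at 2.5 h, -0.141 at 5 h and 0.360 at 10 h. Tgfbr1 had -0.253 at 2.5 h, -0.0845 at 5 h and 0.146 at 10 h.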

How the results depend on the processing

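The number of member genes passing the test of TSA pools against control, 2, was 0 with no filter on dim probes (1 of all 9897 probes passed), 0 without each TSA pool, 0 with hours and TSA in 1 fit, and 0 to 2 with single arrays left out. Of all 7422 probes, 3 to 7 passed without a TSA pool, 0 with hours and TSA in 1 fit, and 5 to 496 with single arrays left out. The number passing the trend test, 0, was 1 with the lowest 50% of probes left out and with eBayes with trend and robust, 4 with the pool as a random block, and 0 with every single array left out. Of all probes, 179 of 4948 passed the trend test with the lowest 50% left out. With trend and robust 289 of 7422 did, with the random block 719, and with single arrays left out 41 to 193. With the replicate block added to the random block, the member counts of the 2 tests were 3 and 4. In those fits 836 and 610 of all 7422 probes passed. Arrays with the same number were not treated as pairs: among 10 pairings of pools, the correlation of their deviations ran from -0.187 to 0.14. The numbers of genes meeting the size rule at 2.5, 5, 7.5 and 10 h, 1, 1, 2 and 2, were 4, 1, 4 and 5 with no filter, 0, 0, 1 and 1 with the lowest 50% left out, 0, 0, 0 and 1 with the offset, and 0 at each time after centring on like ID numbers. They were 2, 2, 4 and 6 at a limit of 1.5-fold and 0 at each time at 3-fold. With single arrays left out they ranged from 0 to 2 at 2.5 and 5 h and from 1 to 2 at 7.5 and 10 h. The share of all probes meeting the size rule under these alternatives was not counted, so these numbers describe the members without a background. The slopes of Gdf9 and Bmpr1b were 0.0203 and 0.048 without the control pool, against 0.0972 and 0.104 with it, so most of the Gdf9 slope came from the step to the control. The slope of Tab1 turned to 0.027 without the control pool and with hours and TSA in 1 fit. Dropping the floor, the shift or using gene means changed none of these counts. The fewer degrees of freedom of fits without a pool come from their construction, and the causes of the other changes were not tested. Of 1670 values for single genes under alternatives, 1562 kept their side of the threshold and 2 reversed (the 2 of Tab1); 53 others changed sign within 1 standard error of 0. Intensities under about 0.207 limit the sizes of folds.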
